A study of Mus musculus with 30 samples.

Results

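The interval from 12 h to 24 h after auxin and dTAG13 was described by setting the 3 libraries of 24 h directly against the 3 libraries of 12 h. These are 6 of the 15 libraries, or 12 of the 30 samples, because each library was sequenced in 2 runs and counts as 1 replicate. Every gene, repeat and non-coding unit was compared with the values as deposited and again after each library was rescaled over genes. The assay was TT-seq, a measure of nascent RNA in which cells take up 4-thiouridine (here at 1 mM for 10 minutes) and only the labelled, newly made transcripts are purified.

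Both groups are mouse embryonic stem cells of the line labelled dTKO, with the genotype Suv39h1fl/fl; Suv39h2-/-; Setdb1fl/fl. The 0 h libraries carry that genotype too, so the Suv39h2 deletion is common to all times. Cells were kept with LIF and serum on gelatin and received auxin at 100 µg/ml with dTAG13 at 0.5 µM, for 12 h in one group and 24 h in the other. The labels do not say which proteins carry degradation tags, nor whether the line is a single clone. They describe the 3 libraries of a time as biological repeats. The p-values of genes, repeats and non-coding units rest on the spread between such repeats. That spread was estimated over the 15 libraries of all 5 times, not over the 12 h and 24 h libraries alone.

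Setdb1 and the Suv39h enzymes trimethylate lysine 9 of histone H3, a mark of silent chromatin. Setdb1 is recruited by zinc finger proteins and Trim28 to endogenous retroviruses, which are the remains of retroviral insertions with long terminal repeats (LTRs) at their ends. The Suv39h enzymes act at the satellite repeats beside centromeres and on intact retroviral and LINE elements. The ERVK class of retroviruses, which in the mouse includes IAP, ETn/MusD and MMERVK10C, is held silent by this mark in embryonic stem cells, and genes near an element whose silencing is lost can be transcribed from its LTR.

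The table holds scaled reads, meaning reads after division by a factor common to the whole library, with no correction for length, so levels are compared between libraries and not between genes. Recovered reads per library lay between 37122087 and 42293639 over the series, and 2 non-coding units over the ribosomal precursor, which hold part of them, are left out of the sums below. The ribosomal precursor Rn45s took 22.5% to 23.9% of gene reads at 12 h and 26.1% to 30.9% at 24 h. All 9 defining embryonic stem cell markers were read in all 6 libraries: Pou5f1 was at 767, 993 and 990 scaled reads at 12 h and at 766, 853 and 676 at 24 h, and Esrrb fell from a mean of 6722 to 4914. Among lists for other cells, no listed gene of trophectoderm and none of blood and immune cells was called in the same direction under both scalings. After rescaling, however, 4 of 11 tested trophectoderm genes were up and 0 down, against 12.8% and 12.5% of all genes. Their median log2 change was 0.03 as deposited and 0.28 rescaled. Of 3 tested blood and immune genes 1 was down as deposited. The blood and immune markers summed to between 150 and 158 scaled reads at 12 h and between 105 and 130 at 24 h, over 8 listed genes in the table. Of 11 tested fibroblast markers 1, Lum, was called up under both scalings and 3, Lum among them, after rescaling. Lum was at 22, 12.7 and 12.3 scaled reads at 12 h and 32.4, 33.7 and 25.7 at 24 h. Its call with the deposited values was lost without 12 h replicate 2, 12 h replicate 3 or 24 h replicate 1. The part of other cells in the results was not tested.

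With the deposited values the summed signal of genes had a lower mean at 24 h than at 12 h, and that of repeats and of non-coding units a higher one, with 12 h and 24 h libraries that overlapped in all 3 sums. Genes other than Rn45s summed to 16437400, 20799700 and 18321000 scaled reads in the 12 h libraries and to 14411600, 18221800 and 14471500 in the 24 h libraries, a ratio of 0.848. The groups overlap, because 24 h replicate 2 lies between 12 h replicate 1 and 12 h replicate 3, and an exact two-sided permutation test gave p = 0.2 (n = 3 and 3; the smallest p this design allows is 0.1). Repeat copies summed to 920623, 1167700 and 1001570 at 12 h and to 1174680, 1444130 and 1108040 at 24 h, a ratio of 1.21 (exact permutation p = 0.2, n = 3 and 3). Non-coding units summed to 3687120, 4395790 and 3955640 at 12 h and to 4186540, 4728460 and 4305350 at 24 h, a ratio of 1.10 (exact permutation p = 0.3, n = 3 and 3).

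Rescaling over genes divides each library by the median ratio of its gene values to their geometric means over libraries. The factors were 1.07, 1.37 and 1.22 at 12 h and 0.942, 1.18 and 0.937 at 24 h, so the deposited values were higher at 12 h over the body of genes and replicate 2 was the highest library of both groups. After rescaling, the sums of genes stood at a ratio of 1.01 (log2 0.0183, against -0.238 as deposited). The ratio of repeat copies rose to 1.44 and that of non-coding units to 1.32, with groups that no longer overlapped and the smallest possible exact permutation p of 0.1 (n = 3 and 3). The series' design text says that a yeast spike-in served to adjust signal between times, and the deposited values keep such a difference where rescaling removes it. The sources used here do not say whether the table was scaled by that spike-in, so a general fall of gene transcription and a difference in scaling cannot be told apart, and both values are given throughout.

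**Figure D1:**
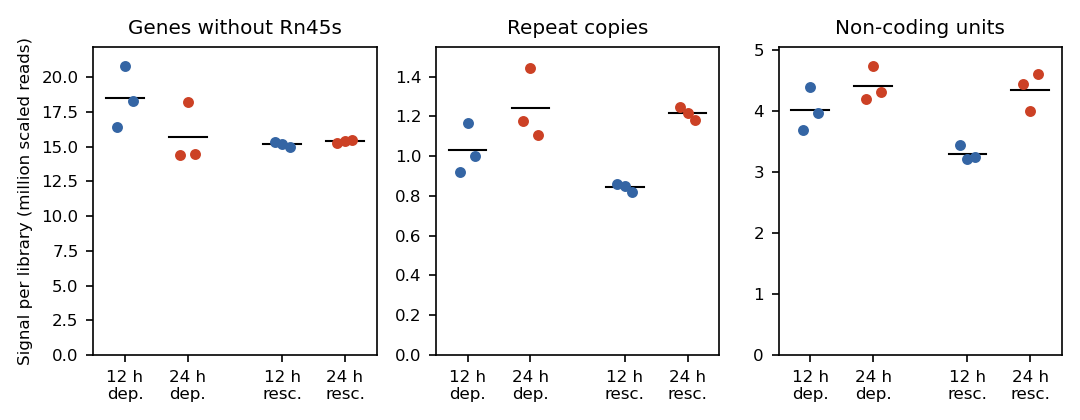
Summed signal per library, up to 20799700 scaled reads (linear axes that start at 0), for genes without Rn45s, repeat copies and non-coding units. Points are the 3 libraries of 12 h (blue) and 24 h (red), bars their means, as deposited (dep.) and after rescaling over genes (resc.). Rescaling brings the gene sums to a ratio of 1.01 and separates the 12 h from the 24 h libraries for repeats and non-coding units.

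The Setdb1, Suv39h1 and Suv39h2 genes were still transcribed and none was called, which limits what these transcripts say about the proteins, since auxin and dTAG13 act on tagged proteins. Setdb1 was at 919, 1201 and 1117 scaled reads at 12 h and 945, 1071 and 891 at 24 h (log2 -0.15, SE 0.13; rescaled 0.11). Suv39h1 changed by -0.16 and 0.10 on the same scales. Suv39h2 transcripts were read at a mean of 1190 at 12 h and 1024 at 24 h although the genotype is Suv39h2-/-. The sources used here do not say which part of the gene was deleted, so this level checks nothing. Setdb1 overlaps Cers2 and Suv39h2 overlaps Dclre1c on the opposite strand, and the strand setting of the counting is not given. Over all genes 12.5% fell and 1.53% rose under both scalings (calls are defined in the next paragraph). Among the 6 H3K9 methyltransferase genes, only Ehmt2 was called down under both scalings, from a mean of 441 to 307 (log2 -0.51), a call lost with the deposited values without 12 h replicate 2 or 24 h replicate 1, and after rescaling without those or without 12 h replicate 3 or 24 h replicate 3. Of 27 tested heterochromatin and silencing factors, 9 fell under both scalings and none rose, among them Mphosph8, a subunit of the HUSH silencing complex (log2 -0.48, rescaled -0.23), and L3mbtl2 (log2 -0.48, rescaled -0.22). Those 2 deposited calls were lost without 12 h replicate 2 or 24 h replicate 1 for Mphosph8 and without 24 h replicate 3 for L3mbtl2. Both rescaled calls were kept. After rescaling 3 of the 27 factors were up, against 12.8% of all genes.

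Of 15261 tested genes, 234 (1.53%) were called up and 4376 (28.7%) down with the deposited values, taking as called an adjusted p (Benjamini-Hochberg) below 0.05 in the two-sided limma test. Rescaling changed that balance to 1946 up (12.8%) and 1904 down (12.5%). The median change of all genes was -0.25 on the log2 scale as deposited and 0.00 after rescaling, and the changes below are read relative to that median. All 234 genes called up as deposited were also up after rescaling (1.53% up under both), and all 1904 rescaled down calls were also down as deposited (12.5% down under both). Only genes called in 1 direction under both scalings are said here to have risen or fallen. Of those, 82 rose and 30 fell by at least 2-fold, and the 12 h and 24 h libraries did not overlap for 214 of the 234 and 1055 of the 1904. The number of down calls with deposited values depended on single libraries: it was 636 without 12 h replicate 2 and 9383 without 24 h replicate 2, while the number of up calls stayed between 176 and 211.

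**Figure D2:**
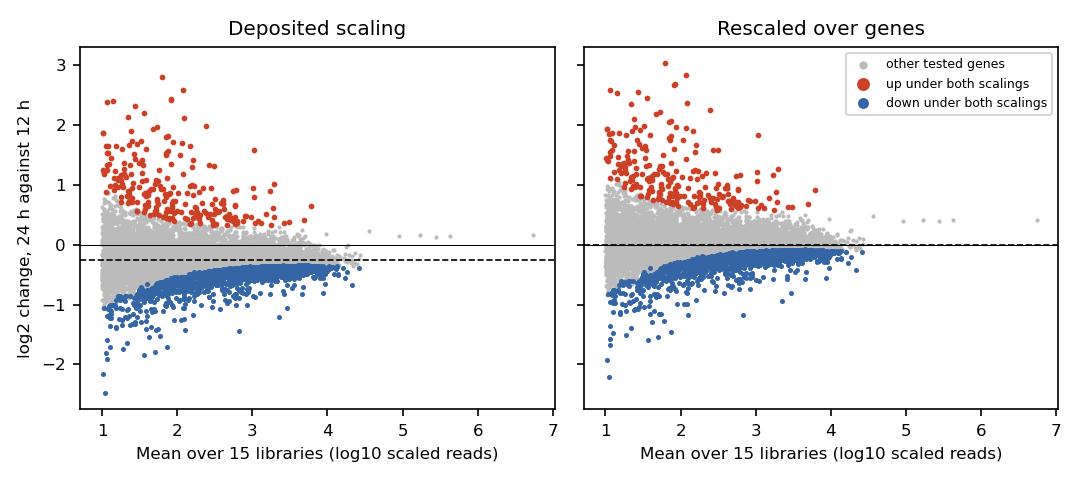
Log2 change from 12 h to 24 h of each tested gene against its mean over 15 libraries (log10 scaled reads), as deposited (left) and rescaled over genes (right). Red points rose and blue points fell under both scalings, grey points are the other tested genes, the dashed line is the median of all genes (-0.25 and 0.00). The red points reach further from the median than the blue ones.

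Clec2g, Cd209c, Vmn2r96 and 4 Zscan4 genes were among the genes that rose most in this interval. Among genes outside the lowest-signal 25%, the 15 ranked highest by change rose 2.30-fold to 6.26-fold (median 3.13-fold), and each kept its call under both scalings in all 6 comparisons that left out 1 library. Vmn2r96, a vomeronasal pheromone receptor gene (chr17:18581727-18598157, plus strand, mm10), was at 22.8, 31.8 and 34.2 scaled reads at 12 h and at 167, 241 and 148 at 24 h (log2 2.59, SE 0.24; rescaled 2.84). Every 24 h library lay above every 12 h library, which was a condition of the ranking, and at 0 h the mean of Vmn2r96 was 0.286. Poteg, of the ankyrin-repeat POTE family, rose from 15.2, 25.5 and 25.4 to 119, 147 and 101 (log2 2.44). Pira6, a paired immunoglobulin-like receptor gene, rose by 2.12, and shares its interval in the table with Pira1, Pira4, Pira7 and Pira11 on the same strand, so its reads could be split among paralogs.

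Clec2g carried the largest number of reads among the genes ranked highest. It encodes a lectin-like ligand of natural killer cell receptors and lies at chr6:128934381-128984707 on the plus strand. Its libraries were at 539, 720 and 640.5 scaled reads at 12 h and at 1837, 2138 and 1701 at 24 h, which is 1.58 on the log2 scale (SE 0.13; adjusted p = 4.9e-29 by limma; rescaled 1.84). Its neighbours Clec2i and Clec2f, of the same family, rose less, by 0.95 and 0.76. Of the 10 tested C-type lectin and lectin-like genes 4 rose and none fell, against 1.53% and 12.5% of all genes. Their median change was 0.42 (rescaled 0.67), and the fourth riser, Cd209c, is described below with its start. Only these 10 of 27 listed genes in the table passed the minimum signal. It is taken over all libraries, so genes read only late had to differ in order to be tested. In this list the summed signal went from between 1580 and 2103 scaled reads per library at 12 h to between 3377 and 4426 at 24 h, with no overlap.

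Pheromone and odorant receptor genes, which are normally read in sensory neurons, were mostly below the minimum signal. Of 254 listed genes 26 passed the minimum signal, with a median of 0.54 (rescaled 0.78). Of these 11 rose and none fell, against 1.53% and 12.5% of all genes. Since the minimum is taken over all libraries, a receptor gene read only at late times had to differ in order to be tested. Vmn2r22 rose from 17.8, 10.9 and 15.8 to 63.2, 75.8 and 74.3 (log2 2.21), Vmn2r36 by 1.60 and Vmn2r91 by 1.67. These receptor genes have close paralogs, and the treatment of reads that match several of them is unknown here.

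Some of the genes that rose, a larger share than of all genes, had near their start a retroviral LTR copy that itself rose. Within 10 kb of the start this held for 27 of the 234 genes (11.5%), for 3 of the 1904 that fell (0.158%) and for 120 of all 15261 (0.786%). Within 100 kb the shares were 34.2%, 4.88% and 7.25%. Genes and copies were called in the same comparison, with the minimum mean taken over all libraries, so those read only late had to differ. Where a gene and a copy overlap they may also share reads. These shares are therefore descriptions without a test. Nat8f2, Slc22a13 and Cd209c had such a copy within 1 kb of their start and Zscan4c had none within 10 kb; the 300 bases around these starts are shown to let the elements be seen beside the values. The windows run from 250 bases before to 50 after the start, 5′ to 3′ on the gene's strand, from RefSeq on GRCm38.p6, with CG dinucleotides, the sites of DNA methylation in mammals, in capitals on either strand alike: Nat8f2 at chr6:85869088-85869387 (minus), Slc22a13 at chr9:119209056-119209355 (minus), Cd209c at chr8:3946814-3947113 (minus) and Zscan4c at chr7:11005495-11005794 (plus).
Nat8f2: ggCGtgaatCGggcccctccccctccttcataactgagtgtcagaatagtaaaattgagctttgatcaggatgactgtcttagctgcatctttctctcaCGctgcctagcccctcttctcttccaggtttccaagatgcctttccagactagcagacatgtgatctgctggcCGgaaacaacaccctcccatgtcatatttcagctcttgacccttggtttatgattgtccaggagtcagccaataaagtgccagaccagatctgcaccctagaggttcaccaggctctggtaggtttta
Slc22a13: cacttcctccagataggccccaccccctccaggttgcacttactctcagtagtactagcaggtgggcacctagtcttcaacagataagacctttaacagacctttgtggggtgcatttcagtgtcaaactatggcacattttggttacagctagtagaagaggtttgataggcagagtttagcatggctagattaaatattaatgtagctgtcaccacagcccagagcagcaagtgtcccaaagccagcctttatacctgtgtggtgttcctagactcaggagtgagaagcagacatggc
Cd209c: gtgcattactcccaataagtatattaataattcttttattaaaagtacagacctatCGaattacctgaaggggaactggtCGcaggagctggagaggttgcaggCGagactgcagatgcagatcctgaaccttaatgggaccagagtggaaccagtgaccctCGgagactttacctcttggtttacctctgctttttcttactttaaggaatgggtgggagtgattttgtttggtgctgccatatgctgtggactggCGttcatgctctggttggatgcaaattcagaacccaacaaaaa
Zscan4c: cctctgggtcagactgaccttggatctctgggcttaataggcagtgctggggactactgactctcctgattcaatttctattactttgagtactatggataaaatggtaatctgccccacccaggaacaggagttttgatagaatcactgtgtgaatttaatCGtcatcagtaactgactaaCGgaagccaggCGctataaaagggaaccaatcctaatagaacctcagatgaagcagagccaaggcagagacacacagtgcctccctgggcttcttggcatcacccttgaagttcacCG
The number of CG differs between these starts. Slc22a13 has 0 in its window, as have 5.43% of the 32851 RefSeq windows, Nat8f2 and Zscan4c have 4 (38.0% have as few) and Cd209c has 5 (43.6% have as few).

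Nat8f2, an N-acetyltransferase gene of the Nat8 cluster, was at 46.5, 61.9 and 50.9 scaled reads at 12 h and at 168, 204 and 150.4 at 24 h (log2 1.69, SE 0.20; rescaled 1.95). The copy ETnERV-int_dup234 begins 694 bases upstream of its start, at chr6:85869831-85870944, and went from 20.5 ± 5.7 to 71.3 ± 10.7 (SD, n = 3; log2 1.77, limma adjusted p = 0.0011). The window printed above overlaps an LTR copy of another family, ERVB7_2B-LTR_MM_dup173, at 8.45, 14.6 and 2.63 scaled reads at 12 h and 17.5, 24.3 and 22.1 at 24 h, which was called only after rescaling (adjusted p = 0.097 as deposited and 0.041 rescaled by limma). Its paralog Nat8f3 rose alongside, from 8.45, 10.9 and 10.5 to 33.2, 44.9 and 26.5 (log2 1.69). Of 5 tested Nat8 genes 2 rose and none fell.

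Slc22a13, an organic anion transporter gene, rose from 50.7, 80.1 and 76.3 to 224, 258 and 172 (log2 1.65; rescaled 1.91). A copy of the IAP family IAPEY5_I-int 897 bases upstream went from 6.76 ± 5.00 to 35.8 ± 5.8 (SD, n = 3). Cd209c, which encodes a C-type lectin related to DC-SIGN, rose from 63.4, 106 and 91.3 to 329, 396 and 303 (log2 1.99; rescaled 2.24). RLTR10C_dup808, the LTR that belongs with MMERVK10C, lies 534 bases inside the gene and went from 4.53 ± 7.12 to 47.1 ± 26.1 (SD, n = 3). The Cd209c window lies within an internal MMERVK10C copy, MMERVK10C-int_dup1517, at 234, 729 and 575 scaled reads at 12 h and 1110, 1823 and 993 at 24 h. That copy's change of 1.45 was not called (limma adjusted p = 0.22, rescaled 0.13), though its libraries did not overlap.

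Other genes of enzyme clusters rose with or without such a neighbour. Rdh16, a retinol dehydrogenase gene, rose by 1.57 with an IAPEY3-int copy 6778 bases upstream, Cyp2c55, a cytochrome P450 gene, by 1.25, and Sult2a4, a sulfotransferase gene, by 1.08. Of 14 tested genes of the cytochrome P450, Slc22 and sulfotransferase clusters 5 rose and 1 fell, against 1.53% and 12.5% of all genes. These 14 of 50 listed genes in the table passed the minimum signal over all libraries, which favours genes read late. Asb4, an imprinted ankyrin-repeat gene, rose by 1.42 and Cntn5, a neuronal adhesion gene, by 1.32, and neither had a rising LTR copy within 100 kb of its start.

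**Figure D3:**
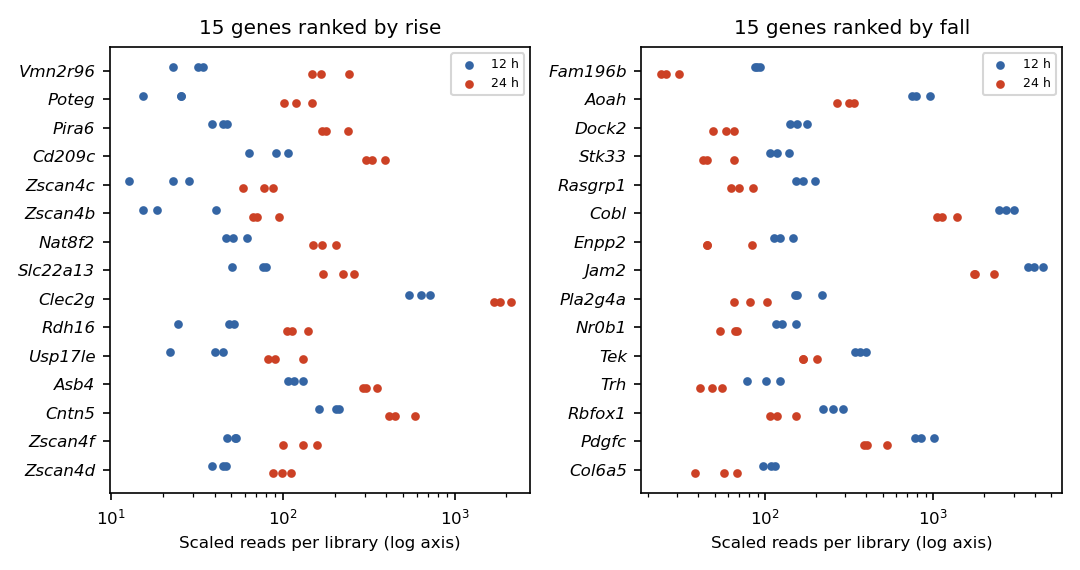
Scaled reads per library on a log axis for the 15 genes ranked highest by rise (left) and by fall (right) among those called under both scalings with groups that do not overlap. Each point is 1 library of 12 h (blue) or 24 h (red). Clec2g has the highest signal on the left, up to 2138, and Jam2 on the right, up to 4476.

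The 2-cell-like genes are active in the cleavage embryo and in a rare state of stem cell cultures. Of 22 tested genes 13 rose and 1 fell, against 1.53% and 12.5% of all genes. Their median change was 0.99 (rescaled 1.22) against -0.25 over all genes. Only these 22 of 37 listed genes in the table passed the minimum signal. It is taken over all libraries, so genes read only late had to differ in order to be tested. The Zscan4 genes, zinc finger genes that mark that state, all started from low signal. Zscan4c was at 12.7, 28.2 and 22.8 scaled reads at 12 h and at 58.2, 87.9 and 77.8 at 24 h (log2 1.82; rescaled 2.06), Zscan4b rose by 1.72, Zscan4f by 1.30 and Zscan4d by 1.18. The start windows of these 4 genes share between 95.3% and 99.3% of their letters at the best alignment without gaps, so reads could be assigned to the wrong copy. Usp17le, a deubiquitinase gene of this program, rose by 1.50 and Tmem92 from 5.07, 4.55 and 6.14 to 24.9, 22.4 and 19.5. The exception was Pramel7, an oocyte and inner cell mass gene, which fell from 31.3, 40.0 and 28.9 to 9.14, 7.49 and 8.84 (log2 -1.85). The summed signal of the list overlapped between times, at 4659 to 5914 scaled reads at 12 h and 4505 to 5730 at 24 h. The retrovirus MERVL, which is switched on in the same state, rose by 0.67 (below).

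Genes that fell most included signalling, adhesion and lipid-enzyme genes of the stem cells. The 15 ranked by fall stood at 0.299 to 0.508 of their 12 h mean (median 0.478) and kept their calls under both scalings in all 6 comparisons with 1 library left out; none had a rising LTR copy within 100 kb of its start. Fam196b had the largest fall, from 87.1, 89.2 and 93.0 scaled reads to 25.8, 30.9 and 23.9 (log2 -1.71, SE 0.18; rescaled -1.46). It lies inside Dock2 on the opposite strand, and Dock2, a Rac activator of blood cells, fell by 1.43 on the log2 scale, so the reads of these 2 genes may not be fully separate. Aoah, which encodes an enzyme that removes acyl chains from bacterial lipopolysaccharide, fell from 748, 951 and 787 to 313, 336 and 266 (log2 -1.44; rescaled -1.18).

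Genes with more signal fell by about 2-fold. Cobl, an actin nucleator, went from 2439, 3022 and 2706 to 1054, 1376 and 1131 (log2 -1.20), and Jam2, a junctional adhesion molecule, from 3660, 4476 and 3950 to 1761, 2285 and 1755 (log2 -1.06). Nr0b1, the Dax1 nuclear receptor of the pluripotency network, went from 125, 153 and 117 to 54.0, 68.3 and 66.3 (log2 -1.05). The other genes among the 15 were Stk33, Rasgrp1 (a Ras activator), Enpp2 (autotaxin), Pla2g4a (cytosolic phospholipase A2), Tek (the angiopoietin receptor), Trh, Rbfox1 (a splicing factor), Pdgfc and Col6a5, with log2 changes between -1.25 and -1.001.

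Naive pluripotency genes fell in part. Of 22 tested, 6 fell and none rose, against 12.5% and 1.53% of all genes. After rescaling 4 of the 22 were up, against 12.8% of all genes. The median was -0.27 (rescaled -0.01), close to that of all genes. Fgf4, the growth factor secreted by these cells, fell from 565.5, 721 and 694 to 359, 394 and 341 (log2 -0.85; rescaled -0.59). Esrrb fell by 0.45 on the log2 scale, and that deposited call was lost without 24 h replicate 3, with the rescaled call kept. Among 19 tested epiblast and germ layer genes only Otx2, a regulator of the exit from naive pluripotency, rose under both scalings, from 222, 296 and 285 to 386, 473 and 355 (log2 0.60; rescaled 0.85), and 9 of the 19, Otx2 among them, were up after rescaling. Lama1, a laminin chain listed with primitive endoderm, fell by 0.86 on the log2 scale, 1 of 2 of its 12 tested list members that fell. Another 2 of those 12 were up after rescaling.

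Of 9 tested hedgehog pathway genes, 5 fell and none rose (12.5% of all genes fell), with a median of -0.40 (rescaled -0.14). After rescaling 1 of the 9 was up. Gli1, a transcription factor that is itself a target of the pathway, fell from 106, 154 and 140 to 76.5, 86.1 and 66.3 (log2 -0.78), Hhip, a membrane inhibitor of the ligand, by 0.99 and Gli2 by 0.71 on the log2 scale.

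Of 26 tested nucleolar genes 16 fell and none rose (median -0.39, rescaled -0.13), against 12.5% and 1.53% of all genes. The genes that fell had a median of 1233.5 scaled reads at 12 h, against 369 over all tested genes. The part of signal level in these counts was not tested. Nop56, a snoRNP core protein, went from 2745, 3800 and 3605 to 2121, 2782 and 2087 (log2 -0.54, rescaled -0.28), with 12 h replicate 1 below 24 h replicate 2. Ncl, Nop2 and Polr1b fell by 0.48, 0.49 and 0.48 on the log2 scale; these 3 deposited calls were lost without 12 h replicate 2 or 24 h replicate 3 and kept after rescaling. Of 32 S phase and mitosis genes 10 fell, Bub1 by 0.56 on the log2 scale, and none rose, against the same shares of all genes. The deposited calls of Nop56 and Bub1 were also lost when the fit held only the 6 libraries.

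Other lists are given by their counts, to be read against the 12.5% of all genes that fell and the 1.53% that rose. Of 33 tested germline genes 9 fell and none rose, including Smc1b, the meiotic cohesin (log2 -0.76), and Sycp1, of the synaptonemal complex (log2 -0.67). Of 14 xenobiotic response genes 6 fell, among them the antioxidant genes Hmox1 (log2 -0.51) and Gclm (log2 -0.54), whose deposited calls were lost with only the 6 libraries. Of 25 genes of the unfolded protein and integrated stress responses 6 fell, Slc7a3 (log2 -0.76) and Nupr1 (log2 -0.85) with calls kept without any 1 library. The fall was also seen for 8 of 27 glycolysis and hypoxia genes, 4 of 17 heat shock genes and 36 of 321 Zfp genes, of which 2 rose. Against a background of 12.5%, 36 of 321 is not above that of all genes. After rescaling, 2 of the 33 germline, 3 of the 14 xenobiotic response and 7 of the 25 stress response genes were up. So were 3 of the 27 glycolysis and hypoxia, 1 of the 17 heat shock and 51 of the 321 Zfp genes. The share of all genes up after rescaling was 12.8%.

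The WNT, Nodal and BMP and FGF lists are read against the same shares. Sp5, a direct WNT target, rose from 44.8, 42.8 and 50.9 to 99.7, 106 and 98.2 (log2 1.12; rescaled 1.37), the only riser among 17 WNT targets, of which 2 fell. Bambi, a decoy receptor for BMP signals, rose from 462, 586 and 542 to 691, 819 and 691 (log2 0.47; rescaled 0.73), a deposited call lost with only the 6 libraries, and was 1 of 20 Nodal, TGF-beta and BMP genes to do so. Of 25 FGF and MAPK genes 2 fell and none rose. After rescaling, 8 of the 17 WNT targets were up and 2 down, Sp5 among those up. Of the 20 Nodal, TGF-beta and BMP genes 10 were up, Bambi among them, and 1 down. Of the 25 FGF and MAPK genes 10 were up and 2 down. The shares of all genes after rescaling were 12.8% up and 12.5% down. The 64 replication-dependent histone genes had a median of 0.07 as deposited and 0.33 after rescaling, above that of all genes on both scales, and 55 of them were up after rescaling, 0 under both scalings and 2 down under both.

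Among repeats the changes were concentrated in ERVK families. Of 774 tested families, each the sum of all copies of 1 name, 53 (6.85%) were up and 21 (2.71%) down as deposited, and 164 (21.2%) up and 9 (1.16%) down after rescaling; 53 (6.85%) rose and 9 (1.16%) fell under both. By group the risers were 15 of 24 IAP families, 7 of 10 ETn/MusD, 6 of 13 MMERVK10C, 6 of 19 VL30 and MuLV, 9 of 36 RLTR13, ERVB4 and RLTR44/45, 2 of 14 MMERVK9, both MERVL families, the major satellite, 4 of 301 other LTR families and 1 of 86 other repeats. No family of L1, B1, B2, MIR, MaLR or other ERVL elements rose under both scalings.

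**Figure D4:**
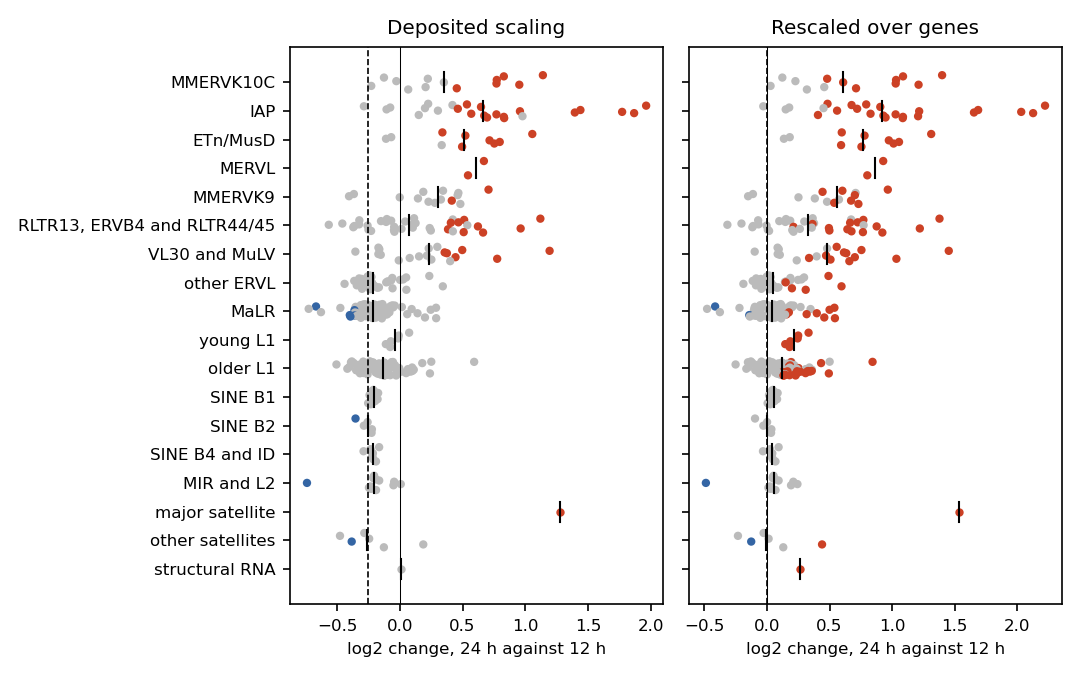
Log2 change from 12 h to 24 h of each tested repeat family in 18 groups, as deposited (left) and rescaled over genes (right). Each point is 1 family, red if called up and blue if called down on that scale, short black bars are group medians and the dashed line is the median of all genes. IAP, ETn/MusD, MMERVK10C, MERVL and the major satellite lie to the right on both scales, and young L1 families are red only after rescaling.

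IAP elements, retroviruses that still insert in the mouse genome, had the largest ratio of summed signal among the repeat groups; their median over families was 0.66, against 1.28 for the single major satellite family. IAPEz-int, the body of the full-length elements, was at 12227, 14821 and 12966 scaled reads at 12 h and at 43536, 51022 and 42239.9 at 24 h (log2 1.77, SE 0.12; rescaled 2.03), with every 24 h library far above every 12 h library. IAPA_MM-int rose from 223, 245 and 263 to 872, 1036 and 955 (log2 1.96; rescaled 2.22), IAPLTR1a_Mm by 1.87 and IAPLTR1_Mm by 1.40. The 24 IAP families together stood at a ratio of 2.76 of their 12 h signal. The signal of IAPEz-int was spread widely: its largest copy held 3.68% of the family at 12 h and 1.35% at 24 h, and the number of copies with a mean of at least 1 scaled read went from 1620 to 2910 of 4453.

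MMERVK10C was the most abundant retroviral family in both groups and still rising. MMERVK10C-int was at 124153, 156865 and 125704 scaled reads at 12 h and at 293185, 352558 and 253878 at 24 h (log2 1.14, SE 0.12; rescaled 1.40). Its group stood at a ratio of 2.17. ETn/MusD elements as a group stood at 1.38; their most abundant family, MMETn-int, was at 62068, 77838 and 60374 at 12 h and 75171, 101088 and 76771 at 24 h, groups that overlap, and its change of 0.33 was called only after rescaling (limma adjusted p = 0.054 as deposited, rescaled log2 0.59). MMERGLN-int, a gammaretroviral family, rose by 1.07, MuRRS4-int by 1.19 and MMERVK9C_I-int by 0.71. RLTR13G and RLTR1B-int rose by 0.38 and 0.37 and overlapped between times; their deposited calls were lost without 12 h replicate 1, 12 h replicate 3 or 24 h replicate 2, and their rescaled calls (0.64 and 0.63) were kept.

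Both MERVL families and the major satellite also rose. MERVL-int was at 3260, 4053 and 3708 at 12 h and 5585, 6804 and 5194 at 24 h (log2 0.67; rescaled 0.93). The major satellite GSAT_MM, the repeat around mouse centromeres, rose from 1647, 2063 and 1876 to 3994, 5585 and 4091 (log2 1.28; rescaled 1.54), with 9 of its 13 tested copies rising. Young L1 families had a median of -0.04 and none was called as deposited, while 6 of 6 were up after rescaling; L1Md_T changed by -0.08 and by 0.18 on those scales. The SINE B2 family B2_Mm2 changed by -0.29 and -0.03 and was not called on either scale.

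The 9 families that fell had calls that were often lost when 1 library was left out. RLTR20D was at 305, 414 and 137 scaled reads at 12 h and at 98.1, 124 and 92.9 at 24 h (log2 -1.30), and its rescaled call was lost without 12 h replicate 1 or 12 h replicate 2. BGLII fell by 0.48 on the log2 scale, with the deposited call lost without 12 h replicate 3 or 24 h replicate 1 and the rescaled call lost without 12 h replicate 3. MER20 and RLTR20B1 changed by -0.44 and -0.42, each with calls lost without any of 4 libraries on either scale. MMSAT4, a satellite found inside zinc finger genes, fell by 0.38 on the log2 scale (rescaled -0.13), with the deposited call lost without 12 h replicate 2, 24 h replicate 1 or 24 h replicate 3 and the rescaled call without those or 12 h replicate 1.

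Single copies were tested as well. Of 13519 tested copies 1338 (9.9%) were up and 271 (2.0%) down as deposited and 1874 (13.9%) up and 79 (0.584%) down after rescaling, with the same 1338 up and 79 down under both. IAP contributed 520 of 913 tested copies, MMERVK10C 297 of 889 and ETn/MusD 249 of 640, against 20 of 881 young L1 copies and 5 of 1698 B1 copies. The minimum mean was taken over all libraries, so copies that were read only late had to differ; with the minimum taken at 12 h alone, 97 of 427 IAP, 159 of 771 MMERVK10C and 116 of 514 ETn/MusD copies rose, of 475 among 15229.

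Ranked by rise, with copies whose mean was under 50 set aside, the first 4 copies were ETn elements. Only called copies whose 12 h and 24 h libraries do not overlap were ranked. ETnERV-int_dup679 (chr13:8896062-8902428, minus strand, mm10) was at 24.5, 27.3 and 0.877 scaled reads at 12 h and at 389, 468 and 445 at 24 h (log2 5.29 on the log2(value + 1) scale, SE 0.97). ETnERV-int_dup45 (chr1:195255399-195261753, minus strand) had 2 reads over the 3 libraries of 12 h and 187 over those of 24 h, a ratio of 94.0 with an interval of 25.7 to 782 that covers counting error only and not the spread between libraries. RLTRETN_Mm_dup820 and ETnERV-int_dup413 were read at 12 h in replicate 3 only, at 64.1 and 19.3, and lay between 139 and 161 and between 56.6 and 101 at 24 h; neither was called by DESeq2, and RLTRETN_Mm_dup820 also not by edgeR with the deposited scaling. In the other direction the 4 copies ranked by fall changed by between -1.42 and -1.11 on the log2 scale. Without any 1 library, 2 of these 4 kept the deposited call and 1 the rescaled call. MurSatRep1_dup272, which kept both, fell from 74.4, 81.0 and 66.7 to 29.9, 39.3 and 29.2 (log2 -1.16). RLTR1B-int_dup693 and RLTR10_dup1135 lost both calls in at least 1 such comparison, and B2_Mm2_dup13083 lost the rescaled call.

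Non-coding units, transcribed stretches outside the annotated genes, rose in a larger share over ERVK copies than over other LTR copies or beside gene starts. Of 15730 tested units 2636 (16.8%) were up and 1533 (9.75%) down as deposited, and 3847 (24.5%) up and 540 (3.43%) down after rescaling; the same 2636 and 540 were called under both. The minimum mean was taken over all libraries here too, so units read only late had to differ; with it taken at 12 h alone, 1852 were up and 1492 down as deposited. Units over ERVK groups rose in 1503 of 2121 cases (70.9%), those over IAP in 626 of 776 (80.7%) and those over MERVL in 196 of 332 (59.0%). Units over other LTR copies rose in 457 of 1733 cases (26.4%). Divergent units that start within 1 kb of a gene start rose in 18 of 2713 (0.663%), and those antisense inside a gene in 95 of 2923 (3.25%).

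Units were ranked by rise in the same way, with those whose mean was under 50 set aside, and the first 4 are given. The unit at chr5:109887201-109902601 on the minus strand, over a copy of the murine leukaemia virus family RLTR4_MM-int, went from 9.30, 28.2 and 14.9 to 202, 218 and 138 scaled reads (log2 3.44). The unit at chr4:155919601-155932001 on the plus strand, over an ETnERV-int copy, went from 21.98, 41.8 and 22.8 to 296, 332 and 288 (log2 3.42). The units at chrX:124137001-124138401 and chr13:3348601-3356201, the latter over an IAPLTR3-int copy, rose by 3.40 and 3.33. All 4 kept their calls under both scalings without any 1 library.

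Units were ranked by fall in the same way. The first of these 4, at chr3:96358601-96360201, changed by -2.71 on the log2 scale. Its call was lost under both scalings in at least 1 comparison with 1 library left out. The other 3 were longer and kept their calls under both scalings without any 1 library. The unit at chr3:129757801-129765801 on the plus strand fell from 93.0, 112 and 100.0 to 28.3, 37.4 and 20.3 (log2 -1.83). The unit at chr17:33570001-33602201 runs antisense to Myo1f and fell from 102, 109 and 112 to 34.9, 31.8 and 23.9 (log2 -1.82). The unit at chr12:55506401-55554801 fell from 185, 260.2 and 212 to 69.0, 90.8 and 51.3 (log2 -1.65). Libraries of 12 h and 24 h that do not overlap were a condition of this ranking.

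The same interval length before it, from 0 h to 12 h, gives a reference for pace. Pace here means the log2 change over an interval, not the number of scaled reads gained. Both comparisons use the 12 h libraries, so an error in those libraries moves them in opposite directions, and the difference between them was tested in the same fit. Of the 234 genes that rose, 158 had also been called up from 0 h to 12 h under both scalings, 2 had been called down and 74 had no such call. Of the 1904 that fell, 1616 had no earlier call under both scalings, 104 had already fallen and 184 had risen. All 53 families that rose had risen before.

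Most risers with a difference in pace under both scalings had a smaller log2 change in this interval than before. The change from 12 h to 24 h was below that from 0 h to 12 h for 1447 genes (9.48%) and 46 families (5.94%) under both scalings, and above it for 39 genes (0.256%) and 3 families (0.388%). After rescaling alone, 1447 genes and 46 families were below and 1313 genes and 27 families above. The imbalance among genes under both scalings thus comes from the deposited values. There the median difference over all genes was -0.44, against -0.001 after rescaling. As deposited the count below rested on single libraries: it was 3484 genes with all libraries. Leaving out 12 h replicate 2 gave 255, leaving out 12 h replicate 3 gave 576, and leaving out 24 h replicate 1 or 3 gave 1039 or 1000. Leaving out 12 h replicate 1 or 24 h replicate 2 raised it to 8719 or 8734. For families it lay between 27 (without 12 h replicate 2) and 384 (without 24 h replicate 2). With only the 0 h, 12 h and 24 h libraries it was 805 genes and 44 families. After rescaling it was 825 genes and 28 families without 12 h replicate 2, and between 1123 and 1616 genes without any other 1 library. Under both scalings, 60 of the 234 rising genes were slower and 15 faster, and 15 of the 53 rising families were slower and 3 faster. The shift of the deposited values enters these counts too. MMERVK10C-int went from a mean of 9157 (0 h) to 135574 (12 h), 299874 (24 h) and 494678 (48 h), a difference in log2 change of -2.74 (SE 0.21). Clec2g went from 20.0 (0 h) to 633 (12 h), 1892 (24 h) and 2686 (48 h), a difference of -3.33, and MuRRS4-int differed by -1.14. In scaled reads, MMERVK10C-int and Clec2g gained more from 12 h to 24 h than from 0 h to 12 h.

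The 3 families that rose faster were the major satellite and a pair of IAP families. GSAT_MM went from a mean of 1175 (0 h) to 1862 (12 h), 4557 (24 h) and 11039 (48 h), a difference of 0.62 (limma adjusted p = 0.028; rescaled 1.06). IAPA_MM-int differed by 0.77 and IAPLTR1a_Mm by 0.75, with adjusted p = 0.017 and 0.015 by limma. With only the libraries of 0 h, 12 h and 24 h in the fit, 0 families were above in pace as deposited (44 below), so these 3 calls rest on the spread estimated over all 5 times. IAPEz-int differed by 0.31, which was called only after rescaling (0.75), and MERVL-int by 0.01 (rescaled 0.45, called).

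**Figure D5:**
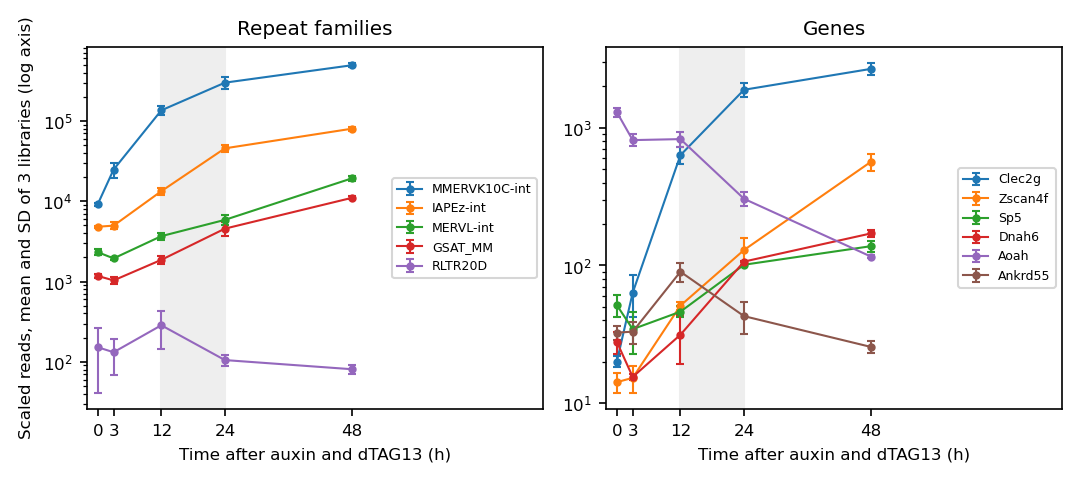
Mean scaled reads with the SD of 3 libraries on a log axis against hours after auxin and dTAG13, for 5 repeat families (left) and 6 genes (right), with the interval from 12 h to 24 h shaded. MMERVK10C-int and Clec2g had more of their rise on this log scale before 12 h than in the shaded interval, Sp5 and Dnah6 rose in the shaded interval and Ankrd55 fell back in it.

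Some genes rose faster in this interval than before. The 8 described here are those that rose most among genes with an ordinary symbol, a faster pace under both scalings and groups that do not overlap, and this choice was made after their values were seen. Dnah6, an axonemal dynein gene, had means of 27.9 at 0 h and 31.4 at 12 h and rose from 21.1, 28.2 and 44.8 to 107, 108 and 105 in the interval (log2 1.80, difference in pace 1.68). An IAPEz-int copy at chr6:73213074-73219451, 2180 bases inside the gene from its start, went from 5.82 ± 2.95 to 29.0 ± 11.9 (SD, n = 3). Sp5 was at 51.5 at 0 h and 46.1 at 12 h on average before its rise to 101, a difference of 1.26, and had no rising LTR copy within 100 kb. Tspan18, a tetraspanin gene, rose by 0.98 and differed by 0.67. Msx2, a homeobox gene downstream of BMP signals, rose from 33.8, 41.8 and 37.7 to 64.0, 66.4 and 62.8, Aqp9, a water and glycerol channel gene, by 0.72 and Rxrg, a retinoid receptor gene, by 0.72. The deposited calls of Aqp9 and Rxrg were lost with only the 6 libraries, and that of Rxrg also without 24 h replicate 3. Tmem92 and Tmc2, at means of 5.25 and 5.28 at 12 h, differed in pace by 1.96 and 1.59.

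Reversed courses called under both scalings ran from a rise to a fall in 184 genes and the other way in 2. With the deposited values the median difference between the 2 changes over all genes was -0.44. Calls of a rise and then a fall were therefore easier to reach, and the 2 counts are not compared. Ankrd55 had a mean of 32.5 at 0 h, was at 75.2, 102 and 93.0 at 12 h and at 49.0, 29.9 and 49.5 at 24 h, back near its starting level with no overlap between times (log2 -1.08; rescaled -0.82). Arhgef6, a Rac and Cdc42 exchange factor gene, went from 50.1 at 0 h to 100.0 at 12 h and 55.7 at 24 h, and Trpc5os from 71.2 to 110.3 and 61.8. Plb1 and Trim54 did likewise at lower signal, with means of 47.5 and 32.4 at 12 h and 24.5 and 16.6 at 24 h; the Trim54 call was lost without 12 h replicate 2 or 24 h replicate 3 and the rescaled Plb1 call without 12 h replicate 1, 12 h replicate 3 or 24 h replicate 3. Pkd1l2, of the polycystin family, and Steap3, a metalloreductase gene, were the 2 genes that fell and then rose: Pkd1l2 went from 182 at 0 h to 105, 144 and 124 at 12 h and 178, 232 and 166 at 24 h (log2 0.62), and Steap3 from 769 to 514, 670.5 and 583.5 and then to 725, 858 and 746 (log2 0.40), a deposited call lost without 12 h replicate 3 and with only the 6 libraries.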

How the data were processed

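The deposited table gives 1 signal value per unit and library, that is gene counts divided by size factors, for 20541 genes, 319797 repeat copies and 42029 non-coding units. Per the submitters' processing notes the authors aligned reads with STAR 2.5.2a to mm10 (GRCm38) and used DESeq2 and deepTools. The sources used here do not give the counting tool, its strand setting or its handling of reads with several positions. Values were whole multiples of 1 step per library for 99.9974% to 99.9991% of units (tolerance 0.05), so whole reads were recovered for the count tests.

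The 2 runs of a library share 1 column and count as 1 replicate. Copies were summed to 1065 families. Units whose mean over 15 libraries reached 10 were tested on log2(value + 1) with limma 3.58.1 in R 4.3.3, with an intensity trend and all 5 times in the fit; fold changes on that scale understate the change of low units. P-values were adjusted by Benjamini-Hochberg over each kind of unit. The fit was repeated after rescaling over 15231 genes. It was tested on simulated data in which scaled values had no shift common to a library, so that test cannot speak to such shifts. Of simulated 2-fold rises it called 88% for genes, 98% for families, 20% for copies and 66% for non-coding units. Of simulated 2-fold falls it called 94%, 92%, 18% and 72%. Alternatives were edgeR 4.0.16, DESeq2 1.42.0, other minimum means, a pseudocount of 5, no trend, fewer libraries and a replicate block. The fit without 48 h libraries was added after seeing the data.

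Named genes are the 15 that rose and the 15 that fell most under both scalings, with an ordinary symbol, above the lowest-signal 25% and with groups that do not overlap, plus up to 4 members of each list with the smallest adjusted p, and genes whose course reversed. Other genes, such as further members of a cluster, were named after their values were seen. The comparison, members and lists were chosen with earlier results of these data known. RefSeq symbols matched 20039 genes.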

Additional observations from a re-analysis of the deposited data

Results flagged for a closer look

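Of the 184 genes that rose and then fell, the 2 that fell and then rose and the 3 such families, 9 genes and 2 families are named here. In these the change from 12 h to 24 h ran against the change from 0 h to 12 h, and the difference between the 2 changes was called by limma under both scalings. The 2 changes share the 12 h libraries. As differences in log2 change with the deposited values, Ankrd55 stood at -2.52, Plb1 at -1.92, Arhgef6 at -1.82, Trim54 at -1.66 and Trpc5os at -1.46. The germline genes Sycp1 and Ddx4, the latter an RNA helicase of germ cells, stood at -1.77 and -1.57: Sycp1 had means of 372 at 0 h, 806 at 12 h and 509 at 24 h, and Ddx4 of 368 at 0 h, 768 at 12 h and 541 at 24 h. The Ddx4 change from 12 h to 24 h lost its deposited call without 24 h replicate 3. Pkd1l2 and Steap3 stood at 1.18 and 0.79. The families BGLII and MMSAT4 stood at -1.19 and -0.71.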

How the results depend on the processing

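The number of genes called with the deposited values, 4610, depended most on the libraries and the spread: it was 3011 with DESeq2 and its size factors (1544 up, 1467 down), 547 with only the 12 h and 24 h libraries (144 up, 403 down), 2182 without the intensity trend and 3049 without the 48 h libraries, and between 847 and 9586 with 1 library left out. Leaving out 12 h replicate 1 gave 8740, replicate 2 of 12 h 847 and replicate 3 of 12 h 1907, and leaving out 24 h replicate 1 gave 962, replicate 2 of 24 h 9586 and replicate 3 of 24 h 878. The rescaled count of 3850 ranged from 2889 to 3778. Genes with a difference in pace numbered 3523 as deposited, 819 with only 0 h, 12 h and 24 h libraries and 273 to 8787 with 1 library left out; rescaled they numbered 2760 and 1658 (without 12 h replicate 2) to 2949. Called families numbered 74 as deposited, 173 rescaled, 186 with edgeR and TMM, 151 with DESeq2, 38 with only the 12 h and 24 h libraries, 47 without the trend and 53 to 254 with 1 library left out, the highest without 24 h replicate 2. Families with a difference in pace numbered 116 as deposited, 73 rescaled, 44 with only 0 h, 12 h and 24 h libraries and 29 (without 12 h replicate 2) to 387 (without 24 h replicate 2) with 1 left out. Called copies numbered 1609 as deposited and 1953 rescaled; with no minimum mean they were 2709 and 3227, with a minimum mean of 10 at 12 h alone 594 and 935, and with a minimum of 50 they were 636 and 821. Called non-coding units numbered 4169 and 4387, and 2192 and 2337 with a minimum of 50. Stricter minimums test fewer units by construction; for the other settings the cause was not tested.

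The log2 ratio of summed gene signal went from -0.238 to 0.0183 after rescaling. Setdb1 turned to 0.108 rescaled, 0.109 with edgeR and 0.108 with DESeq2, Suv39h1 to 0.0961, 0.101 and 0.0988, Suv39h2 to 0.0401, 0.0405 and 0.0391, and L1Md_T to 0.181, 0.183 and 0.181, and it lay between -0.176 (without 12 h replicate 1) and 0.0367 (without 12 h replicate 2) with 1 library left out. Over the 114 features named and 1710 alternatives, 1605 kept direction and call, 78 lost the call, 14 gained one and 13 turned.

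Replicate numbers are shared between times, but the labels do not say what a number shares, so libraries were not treated as pairs. Deviations of 12 h and 24 h libraries with the same number correlated at -0.0247, 0.0594 and 0.00987 across genes. Such a correlation cannot see a shift common to a whole library. Replicate 2 had the highest rescaling factor at 0 h (1.13), 12 h (1.37), 24 h (1.18) and 48 h (0.858), but the lowest at 3 h (0.840). With the replicate block 5795 genes were called (269 up, 5526 down). With 3 libraries a group the exact test of a single value cannot go below p = 0.1.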
